A study of Mus musculus with 12 samples.

Results

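Macrophages of ischaemic mouse muscle were compared between the middle and the ends of the first week after injury. The middle days were 2 and 4 days post injury (dpi), and the first and last day were 1 and 7 dpi. All 12 libraries of the study entered the comparison, 6 of the middle days and 6 of the first and last day, with 3 libraries per day. Every group held cells of male C57BL6J wild type mice, 8 to 12 weeks old, whose femoral artery had been ligated. The day of collection is the only difference between the groups that the labels give. The cells came from digested calf muscle of the ischaemic limb and were taken by the study as t-CD45+CD11b+F4/80+CD64+ macrophages. The t-CD45 stain was applied to the digested muscle, so that it also marks immune cells still in the circulation. Uninjured muscle was not part of the comparison. The sources used here do not state how many animals gave 1 library, and P values therefore refer to the variation among libraries, part of which may be technical.

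Muscle that loses its blood supply is entered by monocytes, which become macrophages, clear dead fibres and then support the growth of new ones. Early cells make inflammatory cytokines, later cells take up debris, store and export lipid and release growth factors, and macrophages of tissue can also divide. A course of this kind can hold genes that move in 1 direction and genes that rise and fall back, and the contrast used here picks out the second kind. It was the mean log2 level of 2 and 4 dpi minus the mean log2 level of 1 and 7 dpi, with each day given its own level, so a positive log2 fold change (log2FC) means higher in the middle of the course. A gene can reach a positive value through the difference from only 1 of the outer days, and therefore both outer days are also given separately.

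The promoters of the genes that moved most as a group are shown first, because cell division genes led the comparison and share short sequence elements there. The 150 bases before the start of transcription are printed 5′ to 3′ on the strand of the gene, from RefSeq (GRCm38.p6), in lower case. Capitals mark the CHR element (TTTGAA, the cell cycle genes homology region), the CCAAT box (CCAAT) and, in Rrm1, the E2F site (TTCCCGC), on either strand. The first 3 are the genes of the mitosis list with the smallest P value that have 1 promoter in the RefSeq table and a CHR element within these bases. Rrm1 was picked in the same way for the E2F site in the DNA replication list, and H2-Eb1 for the CCAAT box in the MHC class II list.
Top2a, a topoisomerase that untangles chromosomes, chr11:99024190-99024339, minus strand: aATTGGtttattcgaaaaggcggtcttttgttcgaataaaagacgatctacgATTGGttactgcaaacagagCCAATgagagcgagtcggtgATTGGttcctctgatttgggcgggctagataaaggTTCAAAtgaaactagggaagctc
Ube2c, the ubiquitin-conjugating enzyme of the anaphase-promoting complex, chr2:164769779-164769928, plus strand: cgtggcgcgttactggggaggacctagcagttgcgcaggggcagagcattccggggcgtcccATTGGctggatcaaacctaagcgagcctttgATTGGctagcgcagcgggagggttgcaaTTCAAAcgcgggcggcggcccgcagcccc
Kif11, a motor of the mitotic spindle, chr19:37376232-37376381, plus strand: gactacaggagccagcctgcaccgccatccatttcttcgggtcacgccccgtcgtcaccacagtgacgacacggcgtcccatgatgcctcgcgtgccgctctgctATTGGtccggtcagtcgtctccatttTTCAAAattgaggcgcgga
Rrm1, the large subunit of ribonucleotide reductase, chr7:102441545-102441694, plus strand: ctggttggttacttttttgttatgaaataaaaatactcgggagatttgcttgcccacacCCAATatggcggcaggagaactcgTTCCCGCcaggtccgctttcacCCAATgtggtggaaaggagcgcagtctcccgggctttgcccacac
H2-Eb1, a beta chain of MHC class II, chr17:34305717-34305866, plus strand: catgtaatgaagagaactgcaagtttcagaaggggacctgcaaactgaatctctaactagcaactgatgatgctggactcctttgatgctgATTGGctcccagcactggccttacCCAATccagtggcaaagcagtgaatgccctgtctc
In Top2a, Ube2c and Kif11 the CHR element began 23, 29 and 19 bases before the start, in each case with a CCAAT box further upstream.

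Of 14310 genes tested, 545 (3.81%) were higher on the middle days and 888 (6.21%) were lower, at a false discovery rate (FDR) under 0.05 and an absolute log2FC above 1 (edgeR). Counts of called members in the gene lists below are to be read beside these shares. The median log2FC of all genes was 0.04, a value that the scaling between libraries (TMM) itself tends to bring near 0. The scaling factors differed by day. They were 0.652 to 0.725 at 1 dpi, 0.889 to 1.05 on the middle days and 1.35 to 1.70 at 7 dpi. Both middle day means lay above both outer day means for 327 of the 545 higher genes, and 4 dpi alone did so for 152. Of the 888 lower genes, 709 had both middle day means below both outer ones and 114 had only the 2 dpi mean below. All 6 middle libraries exceeded all 6 outer ones for 275 genes (1.92%) and lay below them for 256 (1.79%), which included 72 of the higher and 158 of the lower genes. The count of lower genes rested in part on 7 dpi replicate 2, without which 512 were lower. With the libraries fitted as 2 groups of 6, so that the difference between the days of a side counted as spread, 55 genes were higher and 115 lower.

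A stricter question is whether each middle day differed from each outer day, answered by the largest of the 4 P values of 2 and 4 dpi against 1 and 7 dpi. No gene passed an FDR of 0.05 by this rule in either direction, with edgeR or with limma-voom, and the smallest FDR was 0.193. At an unadjusted P under 0.05, 86 genes (0.601%) were high and 174 (1.22%) were low on both middle days, each with an absolute log2FC above 1 (edgeR). Without the filter on low counts 29 and 43 genes passed the FDR, and without 7 dpi replicate 3 the counts were 11 and 6, while leaving out 1 dpi replicate 3 gave 1 low gene. Taken against 1 dpi alone, 1355 genes (9.47%) were higher and 922 (6.44%) lower on the mean of the middle days, and against 7 dpi alone 1227 (8.57%) were higher and 2279 (15.9%) lower (edgeR). These comparisons share the libraries of 2 and 4 dpi and were added after the data were seen.

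**Figure D1:**
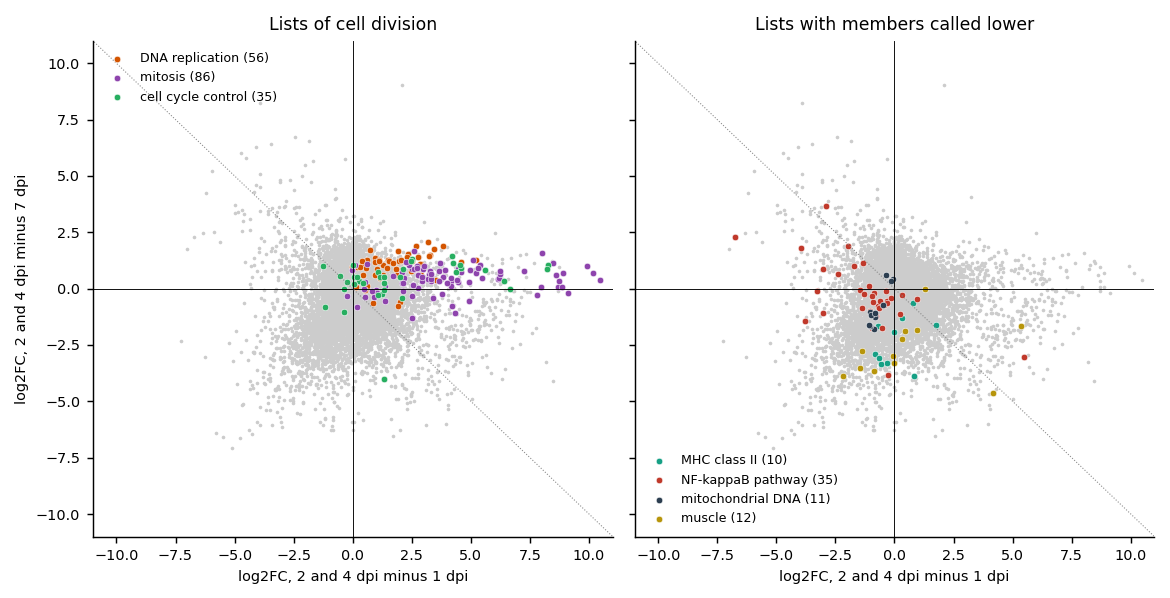
Each grey point is 1 of 14310 genes, with the log2FC of the mean of 2 and 4 dpi against 1 dpi on the x axis and against 7 dpi on the y axis. The contrast is positive above the dotted line. Coloured points are tested members of gene lists (numbers in brackets), and the 56 DNA replication genes lie mostly to the right of 0 on the x axis and above 0 on the y axis, while the mitosis genes spread far to the right at y values around a median of 0.45.

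Genes of cell division made up the clearest group of higher genes. The list of DNA replication, which covers origin licensing, the fork and nucleotide supply, had 34 of 56 tested members higher (60.7%) and 0 lower, with a median log2FC of 1.29. The mitosis list, which covers kinetochore, spindle, checkpoint and chromosome condensation, had 67 of 86 higher (77.9%), 0 lower and a median of 1.95. In the list of cell cycle control, 14 of 35 were higher, 2 were lower and the median was 0.84. None of the members of the first 2 lists was lower at an unadjusted P under 0.05, nor with DESeq2 or limma-voom. With the libraries as 2 groups of 6, the counts of higher members were 16, 0 and 1. In the mitosis list 13 members had no count at all on 1 of the days, and setting those days to 3 counts per group left the median at 1.95. A median moves only where members cross it, so this says little about the folds of those 13.

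Replication and mitosis members differed in the day they were set apart from. In the DNA replication list, 38 members were higher against 1 dpi and 27 against 7 dpi, at medians of 1.75 and 1.06. In the mitosis list, 74 were higher against 1 dpi but 7 against 7 dpi, where 2 were lower, at medians of 3.36 and 0.45. Levels are given as CPM, the counts of a library scaled to a common depth, and on the log2 scale they were centred on the mean of each gene over the 12 libraries. The median member of the mitosis list had centred day means of -2.40, 0.17, 1.85 and 0.41 (1, 2, 4 and 7 dpi), so that it peaked at 4 dpi. The median member of the DNA replication list had -1.02, 0.80, 0.57 and -0.37, with both middle days above both outer ones. At an unadjusted P under 0.05 in each of the 4 comparisons, 25 of the 56 replication genes and 0 of the 86 mitosis genes were high on both middle days. The share among all genes tested was 0.601%, so the 0 of the mitosis list lies close to it. The difference between the lists was not tested.

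**Figure D2:**
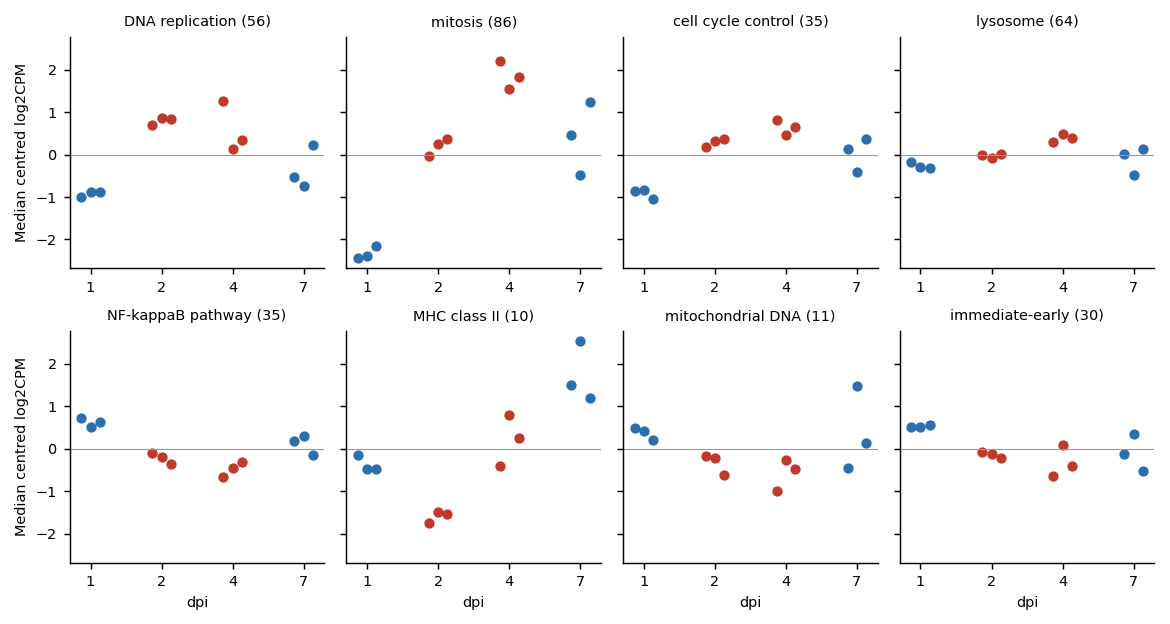
Each point is 1 library, placed by day (x axis, dpi), and its height is the median over the tested members of a list (number in brackets) of log2CPM centred on each gene's mean of 12 libraries. Red marks the middle days and blue the first and last day. DNA replication is high on both middle days, mitosis is highest at 4 dpi, and MHC class II is lowest at 2 dpi and highest at 7 dpi.

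Mcm7, a subunit of the helicase that opens DNA at the replication fork, had the largest increase among called genes without overlap of the libraries and with a mean log2CPM of at least 4. Its level was 5.97, 6.98 and 5.49 CPM at 1 dpi, 45.5, 64.8 and 56.9 at 2 dpi, 91.9, 33.2 and 40.6 at 4 dpi, and 6.21, 8.93 and 24.0 at 7 dpi. All middle libraries lay above all outer ones, with 7 dpi replicate 3 the highest of the latter, and the log2FC was 2.63 (SE 0.31, adjusted P = 9.51e-05, edgeR). The other subunits Mcm2 to Mcm6, looked at after the values were seen, were also higher, so all 6 subunits of the ring passed. Their smallest log2FC was that of Mcm3, at 1.41. Mcm6 averaged 9.12 ± 1.71, 104 ± 7.7, 70.3 ± 42.4 and 31.3 ± 22.2 CPM (SD, n = 3; 1, 2, 4 and 7 dpi), and here the middle and outer libraries overlapped.

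Rrm1, which makes the deoxynucleotides for DNA synthesis, was measured at 12.6, 8.87 and 9.41 CPM at 1 dpi, 27.9, 41 and 42.4 at 2 dpi, 68.8, 32.4 and 41.4 at 4 dpi, and 14.6, 12.0 and 25.3 at 7 dpi. The groups did not overlap (log2FC = 1.66, SE 0.22, adjusted P = 0.000166, edgeR). Pole, the catalytic subunit of DNA polymerase epsilon, averaged 0.361, 4.55, 5.92 and 1.38 CPM over the 4 days, and rose in the middle by a log2FC of 2.85 (SE 0.33). Chaf1b, of the chromatin assembly factor that loads histones behind the fork, rose by 1.86 (SE 0.23). By role, 15 of 23 origin licensing and helicase genes, 14 of 24 polymerase and fork genes and 5 of 9 genes of nucleotide supply were higher.

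Members of the mitosis list are given next. Racgap1, which guides the closing furrow in cytokinesis and had the smallest adjusted P of the list, was at 0.472, 1.40 and 0.831 CPM at 1 dpi, 9.99, 11.2 and 13.8 at 2 dpi, 45.6, 34.9 and 35 at 4 dpi, and 9.66, 7.09 and 18.2 at 7 dpi. Its 2 dpi and 7 dpi libraries overlapped and the 4 dpi libraries stood above all others (log2FC = 2.67, SE 0.25, adjusted P = 2.45e-05, edgeR). Stmn1, which destabilises microtubules, had means of 1.15, 17.3, 69.7 and 28.3 CPM at 1, 2, 4 and 7 dpi (log2FC = 2.61, SE 0.26). Top2a followed with means of 1.81, 20.9, 54.5 and 26.4 CPM (log2FC = 2.26, SE 0.27). Nuf2, of the kinetochore complex that grips microtubules, had no count in the 1 dpi libraries and 2.08 to 2.48 CPM at 2 dpi, 7.64 to 11.7 at 4 dpi and 1.23 to 4.41 at 7 dpi, so that its fitted fold depends on the prior count and is not given. All 26 genes of the spindle, motors and cytokinesis were higher, as were 19 of 25 of the kinetochore and centromere and 17 of 23 kinases, checkpoint and anaphase-promoting complex genes, against 5 of 12 of condensation and the nuclear envelope.

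Among the regulators, cyclins and their kinases moved most. Ccna2, the cyclin of S phase and mitotic entry, averaged 0.298, 5.91, 34.7 and 8.18 CPM over the 4 days (log2FC = 3.20, SE 0.32, adjusted P = 4.11e-05, edgeR). Ccnb1, the mitotic cyclin, and Foxm1, a transcription factor of mitotic genes, each had a count in only 1 of the 3 libraries of 1 dpi. From 2 dpi on Ccnb1 averaged 5.33, 26.8 and 5.69 CPM, and Foxm1 averaged 1.89, 5.63 and 2.60 CPM. Ccne1, a cyclin of the entry into S phase, was at 0.629 to 0.739 CPM at 1 dpi, 3.23 to 3.58 at 2 dpi, 2.40 to 7.20 at 4 dpi and 0.555 to 2.27 at 7 dpi, so that its middle libraries lay above all outer ones (log2FC = 1.92, SE 0.35). Ccnd1, a cyclin of G1, was highest at 2 dpi, with means of 21.4, 202, 70.4 and 51.5 CPM (log2FC = 1.84, SE 0.36). Wee1, the kinase that holds mitosis back, was at 5.03 to 7.14 CPM at 1 dpi, 19.7 to 33.7 at 2 dpi, 18.6 to 31.0 at 4 dpi and 10.5 to 17.2 at 7 dpi. Its middle libraries lay above all outer ones (log2FC = 1.51, SE 0.18). The members called lower were Cdkn1c, an inhibitor of cyclin-dependent kinases (log2FC = -1.33, SE 0.46), through 7 dpi only, with day means of 0.312, 0.312, 2.04 and 13 CPM, and Ccnd2, the other D cyclin called (log2FC just past the limit of 1, SE 0.27). Both calls were lost when single libraries were left out, Cdkn1c for instance without 1 dpi replicate 2 (log2FC = -0.81) and Ccnd2 without 7 dpi replicate 2 (log2FC = -0.83).

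The elements in these promoters were counted over windows of 300 bases, 250 before and 50 after the start, which RefSeq gave for 10034 of the genes tested (12790 windows). A CHR element stood in 63.0% of 81 windows of mitosis genes and in 17.9% of 56 windows of DNA replication genes, against 12.4% of windows of all tested genes and 17.9% of the 32851 windows in the table. Counting only the bases before the start, the CHR share was 32.1% in mitosis, 14.3% in DNA replication and 15.5% in all higher genes, against 10.9% of all tested. The E2F site had the opposite order, with 33.9% of windows of DNA replication genes and 11.1% of mitosis genes against 8.09% of all tested and 4.6% of all windows. Before the start only, it stood in 21.4% of DNA replication, 6.17% of mitosis and 7.56% of higher windows, against 6.76% of all tested. CCAAT boxes stood in 57.1% of DNA replication, 66.7% of mitosis and 37.5% of all tested windows, and in 37.4% of the table. Of all windows of higher genes, 23.3% held a CHR element, 51.9% a CCAAT box and 12.0% an E2F site, and of lower genes 13.9%, 35.2% and 7.40%. The windows covered 405 of the 545 higher and 357 of the 888 lower genes. These are matches of letters, and no test was run on them.

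A further 5 elements were counted on both strands of the same windows. The CRE (TGACGTCA) stood in 3.15% of windows of higher and 2.02% of lower genes (2.92% of all tested, 1.79% of the table), and the AP-1 site (TGACTCA) in 2.73% and 5.61% (3.99% and 5.20%). The heat shock element (TTCNNGAA) stood in 6.30% and 7.85% (7.19% and 8.52%). The E-box (CACGTG) stood in 7.56% and 7.40% (9.79% and 7.15%), and the CLEAR element of lysosomal genes (TCACGTGA), which contains an E-box, in 0.840% and 0.897% (1.82% and 0.974%). The AP-1 site stood in 16.1% of 31 windows of NF-kappaB pathway genes and in 0 of 31 windows of immediate-early genes, and the heat shock element in 30.0% of 20 windows of heat shock genes.

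Outside the division lists, 2 of the genes of largest increase without overlap, Slc27a1 and Hadh, take part in the use of fatty acids. Slc27a1, which encodes the fatty acid transport protein FATP1, was at 32.8, 22.6 and 46.9 CPM at 1 dpi, 154, 126 and 166 at 2 dpi, 147, 115 and 112 at 4 dpi, and 47.4, 27.7 and 74.1 at 7 dpi. Every middle library exceeded every outer one (log2FC = 1.73, SE 0.22, adjusted P = 0.000132, edgeR). Hadh, an enzyme of mitochondrial beta-oxidation, was at 4.87 to 9.04 CPM at 1 dpi, 22 to 27.9 at 2 dpi, 30.0 to 33.3 at 4 dpi and 11.1 to 20.8 at 7 dpi (log2FC = 1.47, SE 0.18). In the TCA cycle list, 1 of 24 members was called with edgeR, Mdh1, the cytosolic malate dehydrogenase (log2FC = 1.03, SE 0.17). Its call was lost without 1 dpi replicate 1 (0.96), without 7 dpi replicate 2 (0.88), with RLE scaling or DESeq2 (both 0.97), with the CPM filter (0.99) and with halved counts (0.98). All 24 members had a log2FC above 0, at a median of 0.50.

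Tubb5, a beta-tubulin of microtubules, had the smallest P among high genes when each middle day was compared with each outer day (FDR of the largest of the 4 P values 0.193, edgeR). It was measured at 258, 236 and 206 CPM at 1 dpi, 546, 639 and 659 at 2 dpi, 684, 581 and 582 at 4 dpi, and 144, 176 and 311 at 7 dpi. The same rule named Aaas, a protein of the nuclear pore, Rps6ka2, a kinase of the RSK family, Megf9, Ptgr1, which inactivates prostaglandins, and Mcm7. Rps6ka2 was at 5.83 to 7.01 CPM at 1 dpi, 17.9 to 20.1 at 2 dpi, 10.3 to 18.3 at 4 dpi and 4.71 to 6.10 at 7 dpi (log2FC = 1.53, SE 0.16). Zranb3, a translocase that remodels stalled replication forks, was at 1.18 to 3.60 CPM at 1 dpi, 21.4 to 30.1 at 2 dpi, 7.68 to 17.4 at 4 dpi and 1.85 to 7.49 at 7 dpi (log2FC = 2.51, SE 0.33). Cd109, a membrane protein that binds TGF-beta, averaged 11.3, 49.0, 41.2 and 13.8 CPM at 1, 2, 4 and 7 dpi (log2FC = 1.84, SE 0.33). Nlrc3, a receptor that dampens innate signalling, and Gpr183, the receptor for oxysterols, also had no overlap (log2FC = 1.76 and 1.32), but their 7 dpi means of 10.0 and 27.4 CPM stood above those of 2.42 and 9.77 at 1 dpi.

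**Figure D3:**
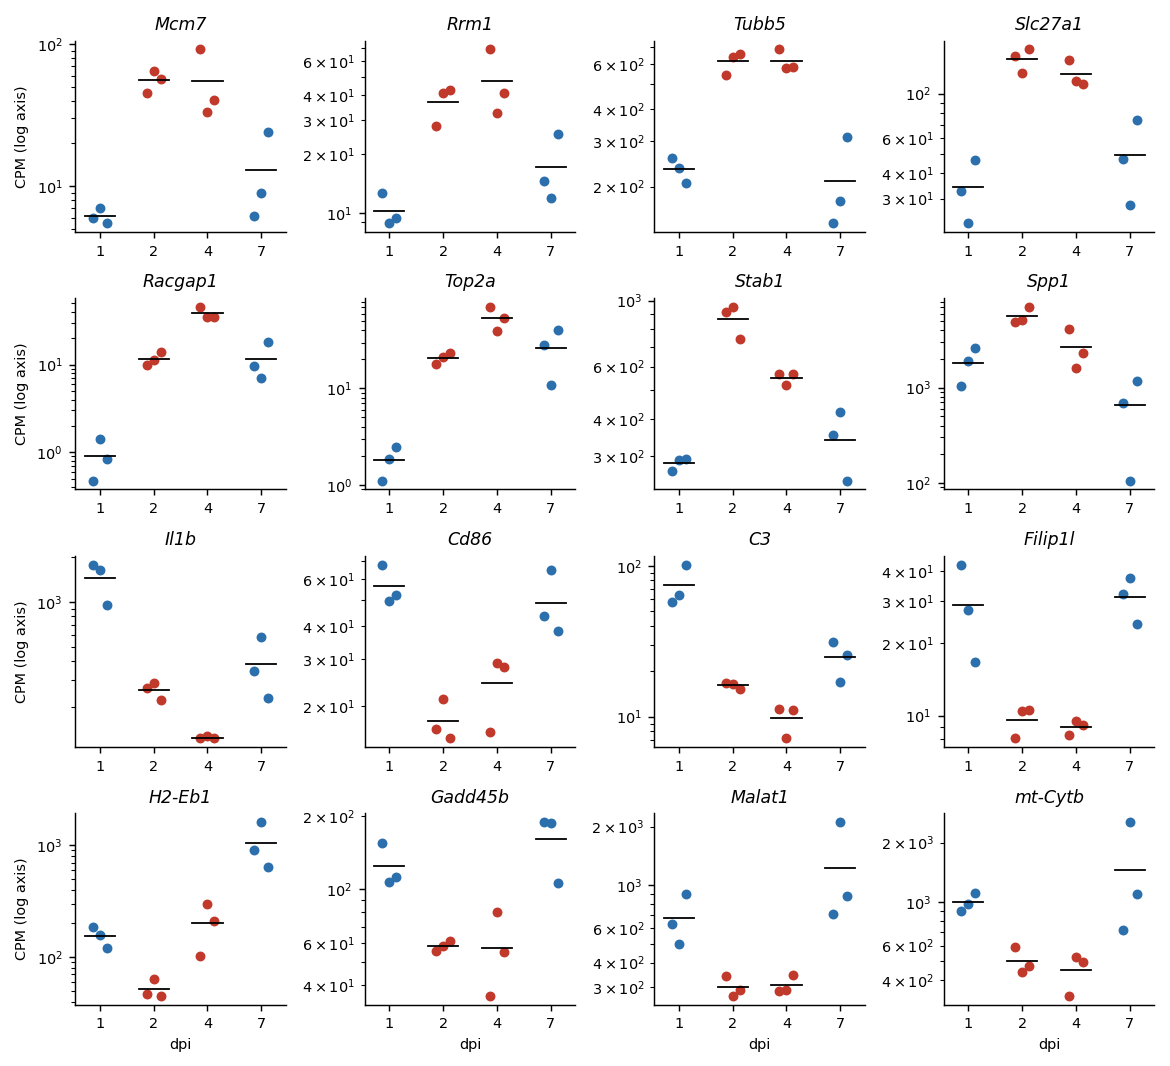
Scaled CPM on a log axis in each of the 12 libraries, by day (x axis, dpi), for 16 named genes. Red points are libraries of the middle days, blue points those of the first and last day, and black bars are the mean of 3 libraries. In the panels of Mcm7, Rrm1, Tubb5, Slc27a1 and Stab1 all red points lie above all blue ones, and in those of Cd86, C3, Filip1l, Gadd45b, Malat1 and mt-Cytb all lie below.

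Stab1, a scavenger receptor, was called higher in the list of tissue-resident macrophage markers and in that of efferocytosis. It was at 268, 291 and 294 CPM at 1 dpi, 913, 952 and 744 at 2 dpi, 565, 521 and 567 at 4 dpi, and 354, 421 and 248 at 7 dpi. The middle libraries lay above all outer ones (log2FC = 1.15, SE 0.15, adjusted P = 0.000135, edgeR). Of the 25 tested markers of tissue-resident macrophages, 3 were higher (12%) and 5 were lower (20%). Of 27 efferocytosis and scavenging genes 2 were higher (7.41%) and 1 was lower (3.7%), against 3.81% and 6.21% of all genes. The Fc receptor-like gene Fcrls was also called higher (log2FC = 1.34), but through 1 dpi only, with means of 34.2, 192, 244 and 214 CPM. Folr2, the folate receptor of resident macrophages, was at 2.12 to 3.14 CPM at 1 dpi, 7.17 to 7.77 at 2 dpi, 8.70 to 9.74 at 4 dpi and 4.21 to 5.27 at 7 dpi, without overlap (log2FC = 1.23, SE 0.16). The lower members were Timd4, a receptor for dying cells, Cd209a, Cd209f and Cd209g, of a lectin family, and Ccl24, an eosinophil chemokine. Cd209f averaged 3.29, 1.16, 0.453 and 2.93 CPM (log2FC = -2.11, SE 0.57). The calls of Cd209a, Cd209f, Cd209g and Timd4 were lost without 7 dpi replicate 2 (log2FC = -0.96, -1.35, -2.33 and -1.41). Timd4 did not exceed 2.46 CPM in any library, and Ccl24 was lower through 1 dpi only, with means of 73.0, 4.62, 2.76 and 3.11 CPM (log2FC = -2.09, or -1.32 without 7 dpi replicate 2).

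Secreted and lipid-handling products of macrophages had called members of different shapes. Spp1, which encodes osteopontin, was highest at 2 dpi, with 1030, 1890 and 2600 CPM at 1 dpi, 4880, 5110 and 7060 at 2 dpi, 4160, 1610 and 2320 at 4 dpi, and 684, 105 and 1170 at 7 dpi. The middle and outer libraries overlapped (log2FC = 1.84, SE 0.41, adjusted P = 0.00469, edgeR). Plau, the urokinase that activates plasmin, had means of 164, 744, 214 and 49.5 CPM at 1, 2, 4 and 7 dpi (log2FC = 2.15, SE 0.30). Gpnmb, a glycoprotein of phagocytic cells, peaked at 4 dpi with means of 88.5, 874, 2800 and 1190 CPM (log2FC = 2.27, SE 0.36). Cd36, a receptor for oxidised lipid, averaged 879, 1320, 841 and 208 CPM (log2FC = 1.30, SE 0.19), so that the means of 1 and 4 dpi were close and 7 dpi was low. Of 20 lipid-associated macrophage markers 2 were higher (10%) and 1 was lower (5%). Of 33 muscle repair factors 3 were higher (9.09%, Spp1, Gpnmb and Plau) and 3 lower (9.09%), and of 22 LXR and PPAR targets 2 were higher (9.09%). Among all genes the shares were 3.81% higher and 6.21% lower, and these lists are small. The lower repair factors differed mainly from 1 dpi. Vegfa, the growth factor of vessels, averaged 57.6, 15.9, 7.2 and 11.2 CPM (log2FC = -1.25, SE 0.28, and -0.79 without 7 dpi replicate 1), and Areg, a ligand of the EGF receptor, 59.4, 9.67, 1.25 and 2.09 CPM (log2FC = -1.64, SE 0.40). Lif, a cytokine of myoblast growth, averaged 19.1, 3.3, 0.317 and 0.509 CPM (log2FC = -1.58, SE 0.41). Of 64 lysosome genes 2 were higher (3.12%), close to the share of all genes, among them the hydrolase gene Arsb (log2FC = 1.73, SE 0.17). By sign, 54 of the 64 lay above 0 at a median of 0.35.

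Housekeeping lists moved by less than the limit on the fold. No member was called among 78 ribosomal protein genes, 69 nuclear genes of the respiratory chain, 31 proteasome genes or 20 glycolysis genes with edgeR, DESeq2 or limma-voom, at medians between 0.43 and 0.46. With no limit on the fold, 51, 32, 15 and 3 of them were higher (FDR under 0.05, edgeR), against 15% of all genes tested. At an unadjusted P under 0.05 the counts were 65, 45, 27 and 8, against 22.3% of all genes. These lists differed mainly from 7 dpi. Their medians against 1 dpi were -0.09, 0.02, -0.23 and -0.66, and against 7 dpi 0.98, 0.83, 1.12 and 1.47. Against 7 dpi 36, 21, 21 and 13 members were higher, and against 1 dpi 0, 0, 0 and 1 were higher, while 6 of glycolysis were lower. Of 28 genes of sterol synthesis, 1 was higher and 1 was lower (3.57% each), against 3.81% and 6.21% of all genes.

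**Figure D4:**
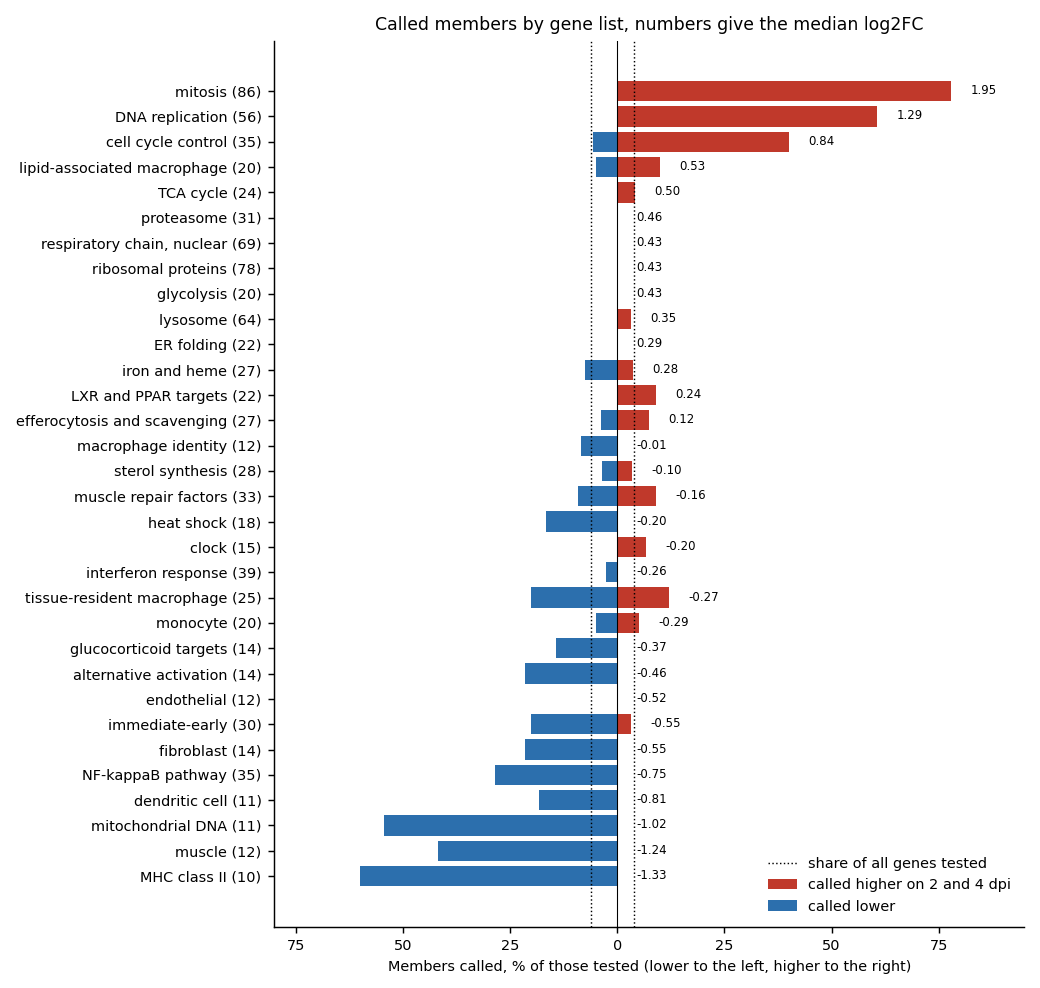
Share of tested members (numbers in brackets) of each list with at least 10 tested members that were called higher (red, to the right) or lower (blue, to the left) on the middle days, with the median log2FC beside each bar. Dotted lines mark the share among all genes tested, 3.81% and 6.21%. Mitosis, DNA replication and cell cycle control stand out to the right, and MHC class II and mitochondrial DNA reach furthest to the left.

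Among genes of inflammation, part of the NF-kappaB list was lower in the middle of the course. Of 35 genes of the NF-kappaB pathway, 10 were lower (28.6%), or 4 as 2 groups of 6, and 0 were higher, also at an unadjusted P under 0.05 and with DESeq2 or limma-voom, at a median log2FC of -0.75. All 6 middle libraries lay below all outer ones for 5 of the 35, against 1.79% of all genes tested. Il1b, the cytokine interleukin-1 beta, was at 1770, 1620 and 950 CPM at 1 dpi, 268, 289 and 223 at 2 dpi, a mean of 124 ± 2.35 (SD, n = 3) at 4 dpi, and 345, 582 and 227 at 7 dpi. It was highest at 1 dpi and lowest at 4 dpi, with 7 dpi replicate 3 within the range of 2 dpi (log2FC = -2.05, SE 0.21, adjusted P = 4.11e-05, edgeR). Il1a, the related alarm cytokine, had means of 103, 9.17, 6.16 and 20.6 CPM at 1, 2, 4 and 7 dpi (log2FC = -2.62, SE 0.30). Nfkbie, which encodes the inhibitor I-kappaB epsilon, was at 81.5 to 94.0 CPM at 1 dpi, 37.5 to 45.5 at 2 dpi, 26.4 to 34.8 at 4 dpi and 50.9 to 83.6 at 7 dpi (log2FC = -1.12, SE 0.14, with the call lost, just short of the limit on the fold, without 7 dpi replicate 2).

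Other members of the pathway were lower through 1 outer day only. Cxcl3, a chemokine for neutrophils, averaged 600, 20.3, 1.5 and 1.16 CPM, a course that went in 1 direction although its log2FC was -2.23 (SE 0.33). The cytokine Il6 averaged 12.1, 1.23, 1.24 and 1.32 CPM (log2FC = -1.69, SE 0.32), and Ptgs2, the inducible cyclooxygenase, averaged 1190, 281, 73.4 and 79.6 CPM (log2FC = -1.10, SE 0.19, and -0.91 without 7 dpi replicate 1). Ccl5, a chemokine for T cells, went the other way, with 0.496, 0.127, 1.24 and 5.72 CPM (log2FC = -2.06, SE 0.43). Tnf, whose means were 547, 226, 87.5 and 38.3 CPM, had a log2FC of -0.04 and was not called. Against 1 dpi, 16 of the 35 genes were lower and 1 higher, and against 7 dpi, 8 were lower and 4 higher. Summed neutrophil markers were highest at 1 dpi, at 139 to 209 CPM, against 56.3 to 82.2 on the middle days and 43.5 to 52.7 at 7 dpi, and their part in these values was not tested.

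Cd86, the co-stimulatory ligand that T cells read, was low on both middle days. It was at 68.1, 49.5 and 52.1 CPM at 1 dpi, 16.4, 21.2 and 15.1 at 2 dpi, 15.9, 29.0 and 27.9 at 4 dpi, and 43.5, 65.0 and 38.2 at 7 dpi. No middle library reached an outer one (log2FC = -1.35, SE 0.18, adjusted P = 0.000193, edgeR). C3, the central complement component, averaged 74.8, 16.2, 9.87 and 24.7 CPM at 1, 2, 4 and 7 dpi, also without overlap (log2FC = -1.77, SE 0.19). Clec4n, the fungal receptor dectin-2, averaged 107, 26.0, 36.6 and 59.4 CPM (log2FC = -1.37, SE 0.19). Lilrb4a, an inhibitory receptor, and Bcl2a1d, which protects cells from apoptosis, were lower as well (log2FC = -1.47 and -1.78), but both have near-identical copies in the genome between which reads can be split, so their values are uncertain.

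Filip1l, which encodes a protein that binds filamin A, had the smallest P among low genes when each middle day was compared with each outer day (FDR 0.193, edgeR). It was at 42.5, 27.5 and 16.7 CPM at 1 dpi, 8.04, 10.4 and 10.5 at 2 dpi, 8.29, 9.46 and 9.13 at 4 dpi, and 32.0, 37.2 and 24.0 at 7 dpi. The outer days overlapped and no middle library reached them (log2FC = -1.69, SE 0.20). Ccnl1, a cyclin of RNA splicing, averaged 82.0, 40.6, 37.3 and 109 CPM (log2FC = -1.28, SE 0.15), and Gadd45b, a stress gene, averaged 125, 58.3, 57.2 and 161 CPM (log2FC = -1.30, SE 0.19). The others of this kind were Cd86, Plekhg2 (log2FC = -1.15, and -0.98 without 7 dpi replicate 2), and Zfand3 (log2FC = -1.01). The call of Zfand3 was lost without any 1 of 5 single libraries, at values from -0.93 to -0.96.

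Immediate-early genes, which cells switch on within minutes of a stimulus, had 6 of 30 members lower, 1 higher and a median of -0.55. The lower share was 20%, against 6.21% of all genes. Against 1 dpi 12 were lower and 0 higher, at a median of -0.86. Against 7 dpi 6 were lower and 3 higher, at a median of -0.32. The median member had centred day means of 0.58, -0.14, -0.33 and -0.06, so that it differed mainly from 1 dpi. Jund, an AP-1 subunit, averaged 44.0, 16.7, 27.6 and 119 CPM at 1, 2, 4 and 7 dpi (log2FC = -1.76, SE 0.31, adjusted P = 0.00117, edgeR). Btg2, an inhibitor of proliferation, averaged 260, 74.0, 178 and 348 CPM (log2FC = -1.39, SE 0.26), with 4 dpi replicate 2 at 294 CPM within the range of the outer days. Fos, with means of 1490, 1240, 1910 and 2480 CPM, was not called (log2FC = -0.32). Fosl1 was the member called higher, although its means declined from 2.96 CPM at 1 dpi through 1.71 and 0.424 to 0.0283 at 7 dpi, where 1 of the libraries had no count. As 2 groups of 6 its log2FC was -0.46, and that of the neutrophil collagenase Mmp8, which was called higher at 1.02 with means of 60.2, 28.3, 17.4 and 1.98 CPM, was -0.44. The call of Fosl1 was lost without any 1 of 9 libraries (log2FC 1.06 to 1.60) and that of Mmp8 without any 1 of 5 (down to 0.76).

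Of 18 heat shock genes 3 were lower (16.7%, against 6.21% of all genes), at a median of -0.20. Against 1 dpi 0 were lower, and against 7 dpi 4 were. Hspb1, called lower, did not exceed 5.88 CPM in any library. Its call was lost without any 1 of 8 libraries and with limma-voom. The other called members are a pair of copies. Hspa1b was at 41.8 to 64.7 CPM at 1 dpi, 38.5 to 51.6 at 2 dpi, 19.9 to 26.5 at 4 dpi and 108 to 377 at 7 dpi (log2FC = -1.75, SE 0.25), and its near-identical copy Hspa1a had a log2FC of -1.62, so the values of this pair are uncertain. Both were lowest at 4 dpi and highest at 7 dpi in mean, whereas the median member of the list was highest at 2 dpi, with centred day means of 0.07, 0.33, -0.37 and 0.03.

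MHC class II genes, which present peptides to helper T cells, were lower in the middle through 7 dpi. Of 10 members tested, 6 were lower (60%) and 0 higher, at a median log2FC of -1.33. H2-Eb1 was at 185, 156 and 121 CPM at 1 dpi, 46.3, 63.6 and 45.0 at 2 dpi, 103, 297 and 209 at 4 dpi, and 907, 1610 and 636 at 7 dpi. The 2 dpi libraries were the lowest, those of 1 and 4 dpi overlapped and those of 7 dpi were the highest (log2FC = -1.97, SE 0.26, adjusted P = 0.000159, edgeR). Cd74, the invariant chain, had means of 1150, 376, 1150 and 4960 CPM (log2FC = -1.87, SE 0.25), and H2-Ab1 and H2-Aa followed with log2FC of -1.87 and -1.82. Ciita, the transactivator of these genes, averaged 2.31, 0.701, 23.0 and 59.2 CPM (log2FC = -1.51, SE 0.34, not called with limma-voom), a rise from 2 dpi to 7 dpi.

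Against 1 dpi 0 of the 10 were lower, and against 7 dpi 9 were lower, at medians of -0.17 and -2.42 (edgeR). At an unadjusted P under 0.05 in each of the 4 comparisons of days, none was low on both middle days, close to the 1.22% of all genes tested. As 2 groups of 6, 0 of the 10 were lower. The promoter of H2-Eb1 printed above holds a pair of CCAAT boxes, and 87.5% of 8 windows of MHC class II genes held at least 1. Summed dendritic cell markers were at 174 to 243 CPM at 1 dpi, 239 to 244 at 2 dpi, 381 to 724 at 4 dpi and 474 to 547 at 7 dpi. B cell markers were at 9.90 to 23.6, 19.4 to 26.9, 73.1 to 209 and 136 to 203 CPM on these days. Both were thus higher at 4 and 7 dpi than at 2 dpi, as the class II genes were, and the part of either in the MHC class II values was not tested.

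Markers of alternative activation, which follow interleukin-4 signals, had 3 of 14 members lower (21.4%, against 6.21% of all genes) and 0 higher. Against 1 dpi 10 were lower and 0 higher, at a median of -1.43. Against 7 dpi 3 were lower and 3 higher, at a median of 0.05. The median member had centred day means of 1.03, 0.03, -0.76 and -0.40, so that it differed mainly from 1 dpi. Retnla was at 35.7, 18.4 and 17.4 CPM at 1 dpi, 0.451, 0.498 and 0.502 at 2 dpi, 0, 2.22 and 0.966 at 4 dpi, and 2.05, 16.1 and 1.53 at 7 dpi. At 7 dpi it was carried by replicate 2, and the others overlapped with 4 dpi (log2FC = -4.15, SE 0.66, and -3.23 without that library). Mgl2, a lectin receptor, was at 7.20 to 14.5 CPM at 1 dpi, 1.65 to 2.49 at 2 dpi, 1.69 to 5.73 at 4 dpi, and 3.86, 49.4 and 4.52 at 7 dpi (log2FC = -2.44, SE 0.54, and -1.35 without 7 dpi replicate 2). Ccl22, a chemokine for regulatory T cells, was the third called member and did not exceed 4.40 CPM in any library. Of 20 monocyte markers, 1 was lower and 1 higher, while the median member fell over the whole course. Its centred day means were 1.735, 0.07, -0.37 and -1.63 (1, 2, 4 and 7 dpi). Against 1 dpi 14 were lower and 1 higher, and against 7 dpi 10 were higher and 1 lower. The 2 called members differed from this course. The lysozyme gene Lyz1 was lower, with means of 35.8, 11.3, 12.7 and 30.4 CPM (log2FC = -1.46, SE 0.28). Cx3cr1, the fractalkine receptor of patrolling monocytes, was the member called higher, through 1 dpi, with means of 18.6, 100.0, 437 and 320 CPM (log2FC = 1.43, SE 0.25).

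Part of the transcripts of mitochondrial DNA was lower on the middle days. Of 11 protein genes tested, 6 were lower (54.5%) and 0 higher, at a median of -1.025. By sign, 8 lay below 0 and 3 above, the highest at 0.168. The 69 nuclear genes of the respiratory chain had a median of 0.43. The mt-Cytb transcript was at 896, 974 and 1110 CPM at 1 dpi, 590, 440 and 473 at 2 dpi, 334, 527 and 493 at 4 dpi, and 718, 2540 and 1100 at 7 dpi. All middle libraries lay below all outer ones, and 7 dpi replicate 2 stood above the rest (log2FC = -1.34, SE 0.24, adjusted P = 0.00131, edgeR, and -1.01 without that library). The ribosomal RNA mt-Rnr1 averaged 464, 231, 278 and 906 CPM at 1, 2, 4 and 7 dpi (log2FC = -1.36, SE 0.18). The count of 6 was 2 without 7 dpi replicate 2, 3 with limma-voom and 3 with the replicate number as a block, and mt-Nd4 and mt-Nd2 were among those lost without 7 dpi replicate 2 (log2FC = -0.96 and -0.67).

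Mitochondrial transcripts together took 4.77% to 12.5% of the counts outside the most abundant gene on the middle days and 6.62% to 18.9% on the outer days. By library the share was 9.43%, 8.51% and 10.2% at 1 dpi and 5.36%, 5.16% and 4.77% at 2 dpi. It was 6.26%, 12.5% and 11.4% at 4 dpi, and 6.62%, 18.9% and 9.47% at 7 dpi. The share was thus low at 2 dpi, but not in all libraries of 4 dpi. This share is also a sign of RNA quality and cell integrity, and its part in the result was not tested. The nuclear non-coding RNA Malat1 was also lower on the middle days (log2FC = -1.59, SE 0.23, adjusted P = 0.000326, edgeR). It was at 635, 497 and 901 CPM at 1 dpi, 340, 270 and 288 at 2 dpi, 286, 289 and 345 at 4 dpi, and 712, 2110 and 876 at 7 dpi. The groups did not overlap, and 7 dpi replicate 2 was again the highest library (log2FC = -1.29 without it). Kcnq1ot1, an imprinted RNA that lies antisense to Kcnq1, was lower too (log2FC = -1.64, SE 0.31), but the protocol does not mark the strand.

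Of 27 genes of iron and heme handling 1 was higher (3.70%) and 2 were lower (7.41%), close to the shares of all genes. Tfrc, the transferrin receptor, averaged 82.1, 105, 71.2 and 17.9 CPM at 1, 2, 4 and 7 dpi (log2FC = 1.17, SE 0.22). Slc40a1, the iron exporter ferroportin, averaged 3.48, 1.61, 19.0 and 44.1 CPM (log2FC = -1.17, SE 0.24), and Trf, transferrin, 197, 53.3, 294 and 774 CPM (log2FC = -1.64, SE 0.30). Each of these was set by 7 dpi more than by 1 dpi. Of 15 clock genes 1 was higher, the repressor Bhlhe41, whose means of 0.882, 9.14, 10.4 and 11.8 CPM did not fall back at 7 dpi. Of 14 glucocorticoid targets 2 were lower, among them the transcription factor Klf9, with means of 12.1, 5.05, 4.93 and 13.8 CPM (log2FC = -1.38, SE 0.28). Of 39 interferon response genes 1 was lower (2.56%, against 6.21% of all genes), Oas2, a sensor of viral RNA, with means of 7.37, 2.43, 11.2 and 20.9 CPM (log2FC = -1.24, SE 0.28). The median member of that list had centred day means of -0.45, -1.22, 0.79 and 0.70, so that 2 dpi was lowest and 4 dpi highest. Against 1 dpi 7 were higher and 0 lower, and against 7 dpi 17 were lower and 0 higher. None of 22 ER folding genes was called with edgeR, DESeq2 or limma-voom, and 8 were higher and 2 lower at an unadjusted P under 0.05, against 22.3% and 18.4% of all genes.

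The identity of the cells was checked on 12 macrophage markers, all of which were tested. Their summed level was 7860 to 12900 CPM on the middle days and 8510 to 16900 on the outer days. Of the 12 only Cd14, the co-receptor for bacterial lipopolysaccharide, was called, with means of 1880, 925, 372 and 911 CPM (log2FC = -1.16, SE 0.18). Muscle markers were low and highest at 7 dpi, at 52.4 to 122 CPM against 6.62 to 27.3 on the middle days and 7.57 to 17.4 at 1 dpi. Of 12 tested, 5 were lower, with 10 lower against 7 dpi and 0 against 1 dpi, and Acta1, skeletal muscle actin, averaged 6.05, 4.61, 6.82 and 44.0 CPM (log2FC = -1.53). Fibroblast markers summed to 311 to 405 CPM at 1 dpi, 547 to 608 at 2 dpi, 538 to 767 at 4 dpi and 704 to 1140 at 7 dpi. Of 14 tested 3 were lower, while 7 were higher against 1 dpi and 12 lower against 7 dpi. Pi16 differed from most of the list, with means of 6.36, 1.30, 0.723 and 4.8 CPM and no overlap (log2FC = -2.50, SE 0.30). Dendritic cell markers had 2 of 11 lower (18.2%, against 6.21% of all genes), or 0 with limma-voom. Against 7 dpi 6 of them were lower, and against 1 dpi 0. Neutrophil markers had 1 of 6 higher (16.7%, against 3.81%), but 0 higher and 1 lower with DESeq2. Against 1 dpi 5 of them were lower, and against 7 dpi 4 were higher. Endothelial (12), B cell (5), T and NK cell (2) and eosinophil and mast cell markers (3) had none called with edgeR, DESeq2 or limma-voom. At an unadjusted P under 0.05, 4 endothelial and 1 B cell marker were lower, and none of the last 2 lists. The neutrophil markers Ly6g and Ngp had no count on the middle days, and Camp had none in any of the 12 libraries. T and NK cell markers summed to at most 1.67 CPM on the middle days and 3.89 on the outer days. In such bulk libraries fewer cells of a type and less RNA per cell cannot be told apart.

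**Figure D5:**
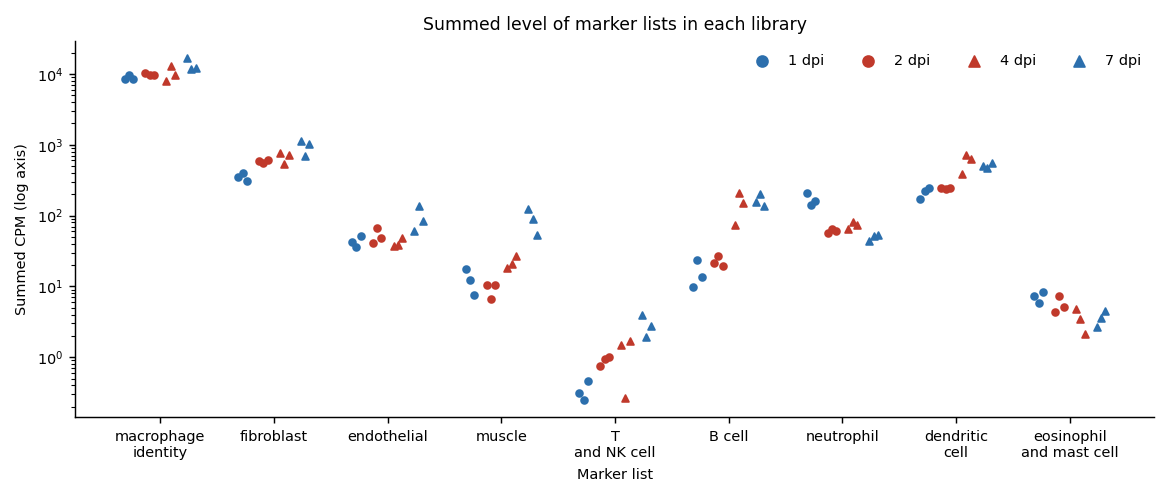
Summed scaled CPM of marker lists (log axis) in each of the 12 libraries. Circles are 1 dpi (blue) and 2 dpi (red), and triangles 4 dpi (red) and 7 dpi (blue), so red marks the middle days. Macrophage markers are the highest list at 7860 to 16900 CPM, and muscle markers are highest at 7 dpi, up to 122 CPM.

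The libraries held 19528316 to 33599472 counts, and 1 gene without a symbol took 14.8% to 55.7% of them, with the lowest shares at 7 dpi. Between 15213 and 21257 genes had a count. Gene length moved with the lower calls, which made up 10.2% of the shortest quartile of genes by exonic length and 3.84% of the longest, against 3.95% and 2.91% for the higher calls, and its part was not tested.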

How the data were processed

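Macrophage RNA was measured by Smart-seq2/3 libraries at 4 time points, 3 libraries each, and all 12 columns of the table were used. The authors trimmed reads (Trim Galore 0.6.6), aligned them to GRCm39 (HISAT2 2.2.1) and counted them per gene (Subread 2.0.1), as their processing notes list these tools, and deposited the counts unnormalized. In the median library 83.1% of the values from 1 to 20 were even numbers, and whether mates of a pair were counted singly is not given in the sources used here. Symbols and exonic lengths were joined by Ensembl ID from a GRCm38 annotation (3333 of 55414 IDs had no symbol). The tests used edgeR 4.0.16 in R 4.3.3. Genes were kept by filterByExpr, scaled by TMM and fitted by quasi-likelihood with 1 coefficient per day, and P values were adjusted by Benjamini-Hochberg over 14310 genes. CPM are TMM-scaled, and log2CPM used a prior count of 2. Significance followed the study's thresholds (FDR under 0.05, absolute log2FC above 1). Scripts were tested on simulated data.

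The groups, lists and tests were chosen with earlier results of these data known, and lists were written from general knowledge. Lists are described by counts and medians, with no set test. Genes were named by a rule. It took the 12 largest increases and decreases among called genes with a mean log2CPM of at least 4 on the higher side and no overlap of libraries, up to 4 called members per list (up to 2 of the other direction), and the 6 smallest P values per direction when each middle day was compared with each outer day. In all 100 genes met it, not all of which are given, and 1 gene is not reported here. Other members given beside them were chosen after their values were seen. Promoter windows came from RefSeq (GRCm38.p6), and the bases after the start were counted but not printed. Alternatives were RLE scaling, a filter at CPM above 1 in 3 libraries, no filter, DESeq2 1.42.0, limma-voom (limma 3.58.1), the replicate number as a block, 2 groups of 6, each library left out, the unnamed gene or mitochondrial genes removed, no limit on the fold change and glmTreat. Halved counts and the comparisons with single outer days were added after the data were seen.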

Additional observations from a re-analysis of the deposited data

How the results depend on the processing

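As 2 groups of 6 libraries, 55 genes were higher and 115 lower, with 1 member higher in cell cycle control, 16 in DNA replication and 0 in mitosis, and 0 lower in MHC class II, 4 in the NF-kappaB pathway, 1 of mitochondrial DNA, 0 immediate-early and 1 muscle. Between-day differences enter the spread in that fit. With no limit on the fold change 2147 genes were higher and 1781 lower, and with glmTreat 91 and 55. Against 1 dpi alone 1355 were higher and 922 lower, with 22 members of cell cycle control higher and 0 of MHC class II, 16 of the NF-kappaB pathway, 12 immediate-early and 0 muscle genes lower. Against 7 dpi alone 1227 were higher and 2279 lower, with 5 of cell cycle control and 7 of mitosis higher and 10 muscle genes lower. Without the low-count filter, 29 genes were high and 43 low on both middle days, and the cause was not tested. The median log2FC of all genes was then -0.14.

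Leaving out 1 library gave 436 to 679 genes higher, 512 to 1034 lower, 0 to 11 high and 0 to 6 low on both middle days, and 2 to 7 lower of mitochondrial DNA. It gave 62 to 69 higher in mitosis, 32 to 38 in DNA replication and 14 to 15 in cell cycle control, and 6 to 7 lower in MHC class II, 7 to 12 in the NF-kappaB pathway, 5 to 8 immediate-early and 4 to 6 muscle. The extremes of 512 and 2 were without 7 dpi replicate 2, and those of 11 and 6 without 7 dpi replicate 3. Same-numbered libraries of different days deviated together only weakly (r from -0.13 to 0.13 over 18 pairs). Libraries with different numbers gave r from -0.22 to 0.27 over 36 pairs. No pairing by number was seen in these values, but whether equal numbers mark a shared batch was not tested. With the replicate block 535 genes were higher and 781 lower, and the lists kept counts within 1.5 times of those given, except mitochondrial DNA, at 3, as also with limma-voom, at 3. DESeq2 gave 530 and 1175 genes, RLE scaling 476 and 974, the CPM filter 462 and 719, and halved counts 468 and 829. Of 100 named genes, 77 were called whichever library was left out, 37 under all other alternatives and 35 under both. Of them 2, Fosl1 and Mmp8, turned direction as 2 groups of 6 (-0.46 and -0.44).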
